A study of Homo sapiens with 4 samples.

Results

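The genes described here are 32 genes of sterol and fatty acid synthesis and of its control by SREBP, the sterol regulatory element-binding proteins, measured in A375 cells, an established human melanoma line. They were chosen by their role in the pathways: 7 encode enzymes from acetyl-CoA to farnesyl diphosphate, 11 the enzymes that turn farnesyl diphosphate into sterols, 5 the SREBP factors and the proteins that hold or escort them, 1 a carrier of sterols inside the cell and 8 enzymes of fatty acid synthesis, elongation and desaturation. All 32 were found by symbol among the 28395 rows of the count table and all 32 passed the filter on low counts, which left 14841 genes. Cells were kept for 6 h with 0.01% olive oil or 0.01% ozonated olive oil, in medium with fetal bovine serum, and 2 libraries per oil, numbered 1 and 2, were sequenced. The labels give the genotype as wild type for both groups and name no further agent, and both groups received an oil, so the comparison is with olive oil and not with untreated cells.

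Cells sense sterols in the membrane of the endoplasmic reticulum. When sterols are plentiful, the INSIG proteins hold SCAP and the SREBP precursors there. When sterols run low, SCAP escorts the precursors to the Golgi apparatus, where proteases free the transcription factor. The freed factor binds sterol regulatory elements, often next to sites of the factor NF-Y, and raises enzymes of sterol synthesis (mainly SREBP2, from SREBF2) and of fatty acid synthesis (mainly SREBP1, from SREBF1). INSIG1 is itself a target of SREBP, which closes a feedback loop, and unsaturated fatty acids are known to lower the activity of SREBP1.

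Total counts per library ranged from 22245807 to 27772480. The first 2 principal components of the log2 values held 66.4% and 21.3% of the variance. Number 2 lay above number 1 with both oils for 36.9% of all tested genes and below it with both for 36.4%. With the ozonated oil, 31.6% were higher within both numbers and 31.1% lower within both. Differences between the oils are therefore given as the fitted log2 fold change over the 4 libraries and also within each number, that is ozonated library 1 against olive oil library 1 and ozonated library 2 against olive oil library 2. The values within a number rest on 1 library against 1 and carry no test. The labels do not tell whether libraries of a group are separate cultures, so the spread behind each p-value is that of 2 libraries and may be technical in origin. Markers of the melanocyte lineage summed to 326.0 and 350.9 CPM (counts scaled to 1000000 per library) with olive oil and to 328.5 and 406.6 CPM with the ozonated oil, most of it from SOX10 (277.9 to 360.9 CPM). Of the 9 tested melanocytic markers, 7 had a fitted value below 0 (median -0.20), among them MITF with -0.33 ± 0.22, and TYR had no count in any library. SOX10 had 0.18 ± 0.14. PMEL, MLANA, DCT, TYRP1 and GPR143 had only 6 to 38 counts per library, so their signs say little. The keratinocyte markers summed to 87.7 to 98.7 CPM, mostly from KRT10 (79.6 to 83.8 CPM) with KRT14 at 7.91 to 16.4 CPM, while TP63 had no count. The leukocyte markers summed to 33.3 to 86.2 CPM, mostly from CD68 (28.4 to 81.7 CPM), with LYZ at 3.61 to 4.45 CPM and CD3E without a count, and the endothelial markers summed to 4.90 to 14.2 CPM. The part of these markers in the results was not tested. In such bulk RNA, fewer cells of a kind and less RNA per cell cannot be told apart.

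The question was which of these genes differ after the ozonated oil. INSIG1, the sterol-sensing brake, lay higher with the ozonated oil in both numbers and far higher in number 2. The sterol carrier STARD4, the sterol enzyme MSMO1 and the desaturase SCD, which makes oleate, were also higher in both ozonated libraries than in both olive oil libraries, by 1.35-fold to 1.78-fold within the numbers and more in number 2 for each of them. Most of the enzymes had small fitted values. For 15 of the 18 enzymes of the mevalonate and sterol steps, and 5 of the 8 fatty acid enzymes, the absolute log2 fold change was under 0.25. The share of all tested genes under this cut was not counted. A small fitted value can average opposite differences within the numbers, as for HMGCS1 (-0.20 and 0.43) and FASN (-0.20 and 0.11). It can also be poorly known, as for DHCR7 (0.20 ± 0.32). The quasi-likelihood test of edgeR, adjusted over all 14841 genes by the Benjamini-Hochberg method, called 0 of the 32 members and 0% of all genes (smallest adjusted p = 0.748). At an unadjusted p under 0.05 stood 4 members, all higher, where 3.84% of all tested genes did so in either direction. DESeq2 called 1 member, INSIG1, where over all 14841 genes it called 39 higher and 20 lower. With limma-voom 0 members and 0 genes were called. An exact permutation test of a single gene, which was not run, cannot give a two-sided p below 0.333 with 2 libraries per group. The tests used rest on the same 2 libraries per group. A missed threshold therefore does not show that a gene is alike with both oils.

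**Figure D1:**
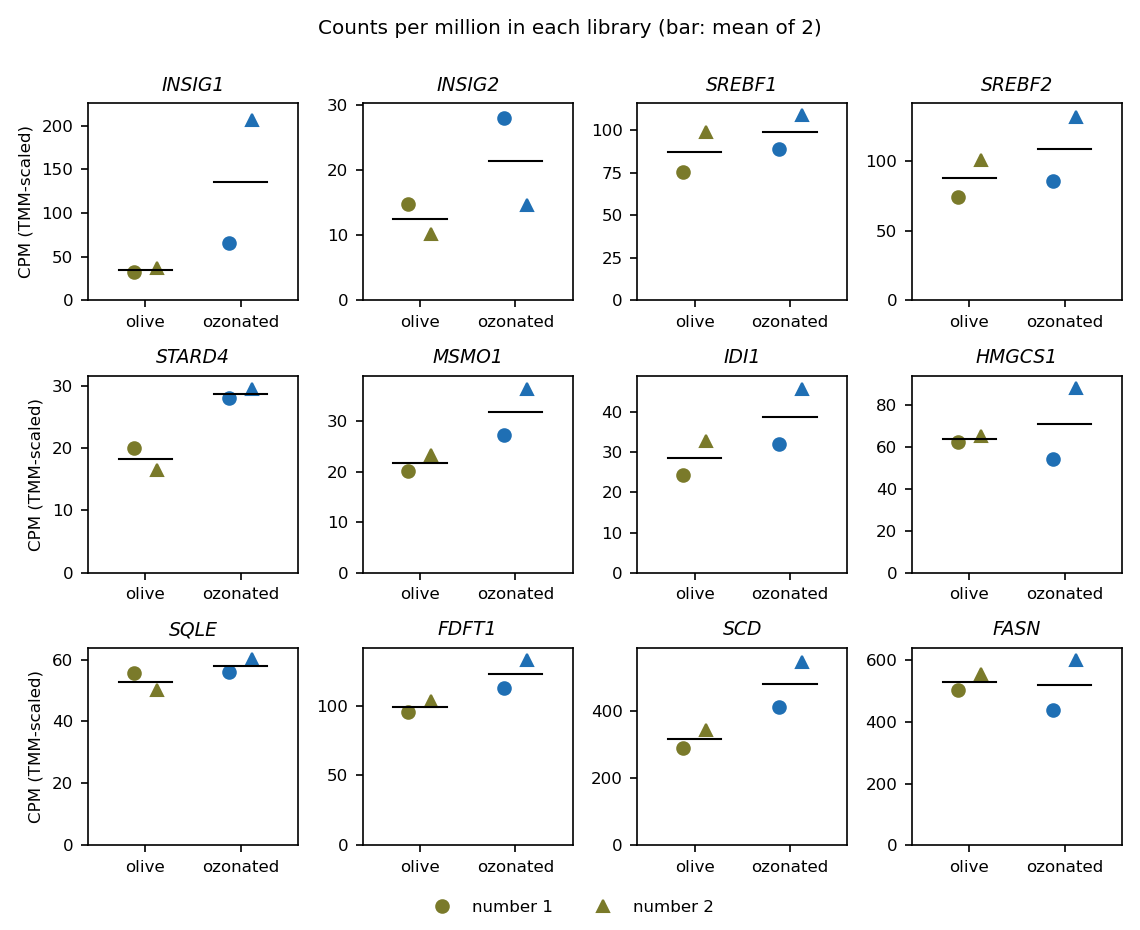
Scaled counts (CPM, y axis from 0, TMM-scaled) of 12 members in each library by oil (x axis). Circles are libraries numbered 1, triangles libraries numbered 2, and bars the mean of 2. INSIG1 reaches 65.4 and 206.4 CPM with the ozonated oil against 32.3 and 36.5 with olive oil, while FASN overlaps between the oils.

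The proteins that retain and escort SREBP come first. INSIG1 (ENSG00000186480, chromosome 7, 155297878 to 155310235, GRCh38) had 32.3 CPM in olive oil library 1, 36.5 CPM in olive oil library 2, 65.4 CPM in ozonated library 1 and 206.4 CPM in ozonated library 2. The oils did not overlap, but the ozonated libraries were far apart from each other. The fitted log2 fold change was 1.98 ± 0.55 (SE, 2 libraries per oil; edgeR quasi-likelihood, unadjusted p = 0.0156, adjusted p = 0.9998). Within the numbers INSIG1 was 2.02-fold and 5.64-fold higher, which placed it 195th of all 14841 genes by the difference in number 1 and 21st in number 2. The size depends on which ozonated library is kept: the fitted value was 0.93 without the ozonated library 2 and 2.58 without the ozonated library 1. Each of these fits leaves 1 ozonated library and mixes oil and number. DESeq2 gave 1.98 with an adjusted p of 0.00636 on all 4 libraries.

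The promoter window of INSIG1 is shown because this gene had the largest fitted value of the members. It holds the bases from 250 before to 50 after the RefSeq start (chr7:155297628-155297927, plus strand, GRCh38.p14), written 5′ to 3′ on the strand of the gene. Here and in the windows that follow, capitals mark matches on either strand to CCAAT (the NF-Y box), CACGTG (the E-box), TCACNCC (a short form of the sterol regulatory element) and TCACNCCAC (a long form, which contains the short one).
INSIG1: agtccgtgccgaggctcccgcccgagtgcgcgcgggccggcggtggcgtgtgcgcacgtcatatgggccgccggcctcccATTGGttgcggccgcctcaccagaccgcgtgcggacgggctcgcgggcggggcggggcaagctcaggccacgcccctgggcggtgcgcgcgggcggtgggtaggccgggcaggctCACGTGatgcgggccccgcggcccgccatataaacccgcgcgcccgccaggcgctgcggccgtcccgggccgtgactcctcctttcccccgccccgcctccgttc
The window of INSIG1 holds 1 NF-Y box, 170 bases before the start, and 1 E-box, 55 bases before it. It holds neither form of the sterol element, which says only that these letters are not in this window.

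INSIG2, the second retention protein, which unlike INSIG1 is not known as a strong SREBP target, had 14.8 and 10.2 CPM with olive oil and 27.99 and 14.7 CPM with the ozonated oil. It was higher within each number, but the ozonated library 2 lay just under the olive oil library 1, so the groups overlapped. The fitted value was 0.77 ± 0.38 (unadjusted p = 0.0967), with 0.92 within number 1 and 0.52 within number 2. INSIG1 and INSIG2 thus differed in which number showed the larger difference, number 2 for INSIG1 and number 1 for INSIG2. The difference between the numbers could not be tested with 1 library per oil and number. The fitted value was 0.24 without the ozonated library 1 and 1.16 without the ozonated library 2.

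The factors themselves differed less. SREBF2 had 74.1 and 100.9 CPM with olive oil and 85.8 and 131.7 CPM with the ozonated oil, a fitted value of 0.31 ± 0.26, with 0.21 and 0.38 within the numbers. SREBF1 had 75.6 and 99.1 CPM against 88.7 and 108.7 CPM, a fitted value of 0.18 ± 0.18. For both, the gap between the numbers with either oil was larger than the gap between the oils within either number, and the groups overlapped. SCAP, the escort, had 93.6 and 105.9 CPM against 99.3 and 101.03 CPM, with values of opposite sign within the numbers (0.08 and -0.07). Transcript levels do not measure how much of the factors is cleaved.

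The window of SREBF2 (chr22:41832855-41833154, plus strand, GRCh38.p14) is shown because it was the only one of the members' windows with the long form of the sterol element.
SREBF2: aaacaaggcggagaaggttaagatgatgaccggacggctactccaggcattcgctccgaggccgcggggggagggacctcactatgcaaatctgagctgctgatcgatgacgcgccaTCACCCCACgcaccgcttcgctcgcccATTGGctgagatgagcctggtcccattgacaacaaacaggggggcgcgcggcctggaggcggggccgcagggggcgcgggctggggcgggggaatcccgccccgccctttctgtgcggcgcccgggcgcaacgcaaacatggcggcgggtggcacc
The element starts 133 bases before the start site and an NF-Y box stands 106 bases before it.

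STARD4, a soluble protein that carries sterols between membranes, had 19.9 and 16.5 CPM with olive oil and 27.95 and 29.5 CPM with the ozonated oil. The ozonated libraries lay close together and above both olive oil libraries. The fitted value was 0.66 ± 0.17 (unadjusted p = 0.0131, adjusted p = 0.9998), STARD4 was 1.40-fold and 1.78-fold higher within the numbers, and the value stayed between 0.53 and 0.80 when each library was left out in turn. STARD4-AS1 lies on the opposite strand over STARD4, and the strand setting of the counting is not given in the sources used here. The window of STARD4 (chr5:111512486-111512785, minus strand, GRCh38.p14) is shown as that of a member that was higher in both numbers.
STARD4: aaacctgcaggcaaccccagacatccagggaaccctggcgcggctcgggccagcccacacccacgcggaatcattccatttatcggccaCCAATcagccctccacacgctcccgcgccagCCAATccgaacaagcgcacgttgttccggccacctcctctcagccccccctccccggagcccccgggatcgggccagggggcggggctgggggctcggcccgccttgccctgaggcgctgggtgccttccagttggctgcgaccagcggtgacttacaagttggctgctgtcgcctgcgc
It holds NF-Y boxes 161 and 130 bases before the start.

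**Figure D2:**
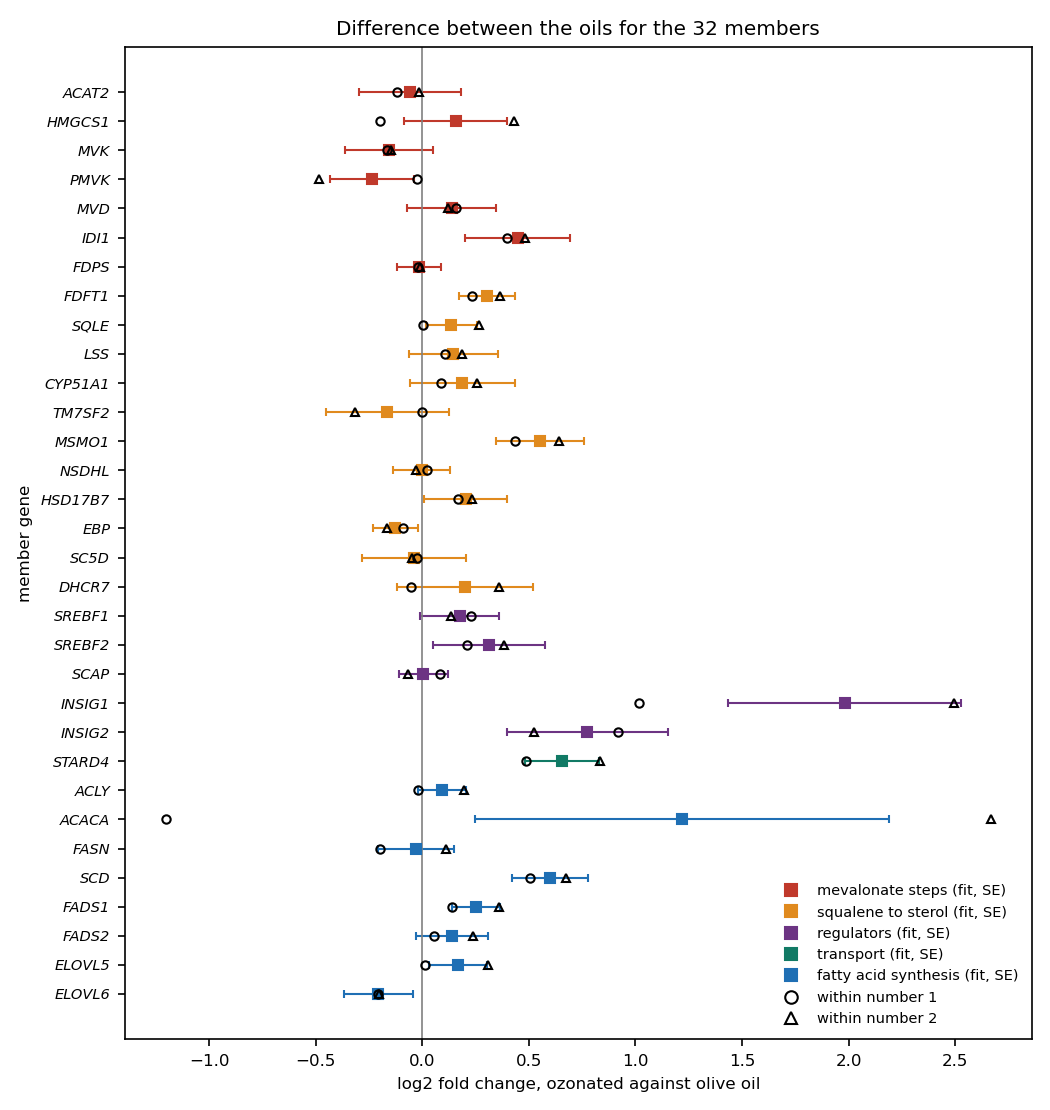
Log2 fold change of the ozonated against the olive oil (x axis) for the 32 members (y axis, ordered by role). Squares with bars are the fitted value ± SE over 4 libraries, open circles and triangles the values within numbers 1 and 2. INSIG1 lies at 1.98, MSMO1, INSIG2, STARD4 and SCD between 0.55 and 0.77, and ACACA has values of -1.20 and 2.67 within the numbers.

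Among the 7 enzymes of the mevalonate steps the median log2 fold change was -0.02, with -0.02 within number 1 and -0.01 within number 2. HMGCS1, which makes HMG-CoA and is a standard SREBP2 target, had 62.4 and 65.4 CPM with olive oil and 54.5 and 88.0 CPM with the ozonated oil. It was lower in number 1 and higher in number 2, so the fitted value of 0.16 ± 0.24 describes neither number. IDI1, which isomerises isopentenyl diphosphate, had 24.2 and 32.7 CPM against 31.99 and 45.6 CPM. It was higher within both numbers (0.40 and 0.48; fitted 0.45 ± 0.25), although the groups overlapped because each oil's number 2 lay above its number 1. The fitted value of IDI1 was 0.17 without the ozonated library 2, 0.25 without the olive oil library 1 and 0.68 without either of the others. FDPS, the synthase of farnesyl diphosphate, which has 8 annotated pseudogene copies that could share reads, had 134.5 and 141.4 CPM against 132.8 and 140.2 CPM. It was nearly the same in all 4 libraries, with a fitted value of -0.02 ± 0.10.

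The other mevalonate enzymes had small values of either sign. The kinase MVK had -0.16 ± 0.21 and the decarboxylase MVD 0.14 ± 0.21, each with the same sign within both numbers. The kinase PMVK had 34.2 and 34.0 CPM against 33.6 and 24.3 CPM, so that the groups did not overlap, but only the ozonated library 2 was clearly lower (fitted -0.24 ± 0.20). ACAT2, the cytosolic thiolase, which TCP1 and SOD2 overlap on the opposite strand, had -0.06 ± 0.24.

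The window of HMGCS1 (chr5:43313363-43313662, minus strand, GRCh38.p14) is shown for comparison, as that of a standard target whose values were opposite within the numbers.
HMGCS1: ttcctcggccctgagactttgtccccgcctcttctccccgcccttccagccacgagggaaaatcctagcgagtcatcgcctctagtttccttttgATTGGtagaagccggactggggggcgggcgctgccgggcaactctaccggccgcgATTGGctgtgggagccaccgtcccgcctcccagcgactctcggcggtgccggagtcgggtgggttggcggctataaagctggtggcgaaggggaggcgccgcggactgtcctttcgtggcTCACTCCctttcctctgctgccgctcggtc
It holds NF-Y boxes 155 and 100 bases before the start and the short sterol form 20 bases after it.

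The 11 enzymes from squalene onwards had a median of 0.15, with 0.02 within number 1 and 0.23 within number 2. MSMO1, which removes methyl groups from sterol intermediates, had 20.0 and 23.2 CPM with olive oil and 27.1 and 36.3 CPM with the ozonated oil. The groups did not overlap, and MSMO1 was 1.35-fold and 1.56-fold higher within the numbers (fitted 0.55 ± 0.20, unadjusted p = 0.0437, adjusted p = 0.9998). The value was 0.33 without the ozonated library 2 and 0.75 without the ozonated library 1. FDFT1, the squalene synthase, had 95.6 and 103.1 CPM against 112.5 and 132.8 CPM, again without overlap, and a fitted value of 0.30 ± 0.13. The window of MSMO1 (chr4:165327419-165327718, plus strand, GRCh38.p14) is shown beside these values.
MSMO1: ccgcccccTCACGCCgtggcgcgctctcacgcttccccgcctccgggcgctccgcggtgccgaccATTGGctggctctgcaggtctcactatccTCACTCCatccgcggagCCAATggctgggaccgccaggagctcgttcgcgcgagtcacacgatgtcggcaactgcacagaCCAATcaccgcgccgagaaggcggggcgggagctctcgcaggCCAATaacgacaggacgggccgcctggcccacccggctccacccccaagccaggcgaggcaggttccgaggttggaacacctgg
It holds 4 NF-Y boxes and 2 matches to the short sterol form, 242 and 156 bases before the start.

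SQLE, which forms the epoxide of squalene, had 55.7 and 50.02 CPM with olive oil and 55.9 and 60.2 CPM with the ozonated oil. Its groups did not overlap, but the gap between olive oil library 1 and ozonated library 1 was close to 0 (fitted 0.14 ± 0.12). The lanosterol synthase LSS and the ketoreductase HSD17B7 were likewise slightly higher without overlap, at 0.15 ± 0.21 and 0.20 ± 0.20, and HSD17B7 has 2 annotated pseudogenes. CYP51A1, the lanosterol demethylase, had 0.19 ± 0.25 and DHCR7, the last reductase of cholesterol synthesis, 0.20 ± 0.32. In both genes the libraries numbered 2 lay above those numbered 1 with either oil. CYP51A1 has 3 annotated pseudogenes, and other genes overlap it on both strands. The isomerase EBP was lower without overlap (61.4 and 65.2 CPM against 57.7 and 58.2 CPM; -0.13 ± 0.10). The desaturase SC5D, the dehydrogenase NSDHL and the reductase TM7SF2 had -0.04 ± 0.24, -0.0034 ± 0.13 and -0.16 ± 0.29. VPS51 overlaps TM7SF2 on the same strand.

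Over the 18 mevalonate and sterol enzymes, 8 were higher within both numbers, 6 lower within both and 4 opposite. Over all tested genes, 31.6% were higher within both numbers and 31.1% lower within both. The median of these 18 was 0.14, beside 0.00051 over all tested genes. It was 0.0030 within number 1 and 0.15 within number 2.

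The 8 fatty acid enzymes had a median of 0.15, with -0.0031 within number 1 and 0.27 within number 2. SCD, which introduces the double bond of oleate and palmitoleate, had 291.8 and 343.3 CPM with olive oil and 414.0 and 548.4 CPM with the ozonated oil. The groups did not overlap, and SCD was 1.42-fold and 1.597-fold higher within the numbers (fitted 0.60 ± 0.18, unadjusted p = 0.0205, adjusted p = 0.9998; 0.38 to 0.79 with each library left out). SCD has the annotated pseudogene SCDP1. FASN, the fatty acid synthase, had 504.2 and 556.3 CPM against 439.0 and 601.0 CPM. It was lower in number 1 and higher in number 2 (-0.20 and 0.11), and its fitted value was -0.03 ± 0.18. The window of SCD (chr10:100346983-100347282, plus strand, GRCh38.p14) is shown because SCD differed most among the well measured fatty acid genes.
SCD: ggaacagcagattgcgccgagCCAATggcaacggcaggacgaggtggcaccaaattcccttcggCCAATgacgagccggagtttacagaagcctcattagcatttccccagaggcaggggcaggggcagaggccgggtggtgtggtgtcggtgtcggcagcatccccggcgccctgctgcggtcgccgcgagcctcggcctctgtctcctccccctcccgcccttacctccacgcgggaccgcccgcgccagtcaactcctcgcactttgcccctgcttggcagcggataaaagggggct
It holds NF-Y boxes 229 and 186 bases before the start and no match to either sterol form or to the E-box.

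The desaturase FADS1, which acts on polyunsaturated chains, had 196.9 and 187.2 CPM with olive oil and 217.0 and 240.5 CPM with the ozonated oil, without overlap (0.25 ± 0.11). Its partner FADS2 had 0.14 ± 0.17, with overlap. FADS1 and FADS2 overlap on opposite strands, and FEN1 lies within the span of FADS2, so their reads may not be fully separated. ELOVL5, which lengthens polyunsaturated chains, was higher without overlap (0.17 ± 0.14), with 0.01 within number 1 and 0.31 within number 2. ELOVL6, which lengthens saturated chains, was lower within both numbers, each by close to the same amount (-0.21 and -0.20; fitted -0.21 ± 0.16). ACLY, which supplies cytosolic acetyl-CoA from citrate, had 373.6 and 363.6 CPM against 368.5 and 416.8 CPM, a fitted value of 0.09 ± 0.11.

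ACACA, the acetyl-CoA carboxylase that commits carbon to fatty acids, had only 72 and 30 counts with olive oil and 25 and 162 with the ozonated oil. Its values within the numbers, -1.20 and 2.67, point in opposite directions, and its fitted value was 1.22 ± 0.97. Of the 32 protein-coding genes within 1000000 bases of ACACA, 14 had no count in any library and 23 had 10 or fewer counts in each library. The median of the fatty acid genes was 0.14 without it.

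**Figure D3:**
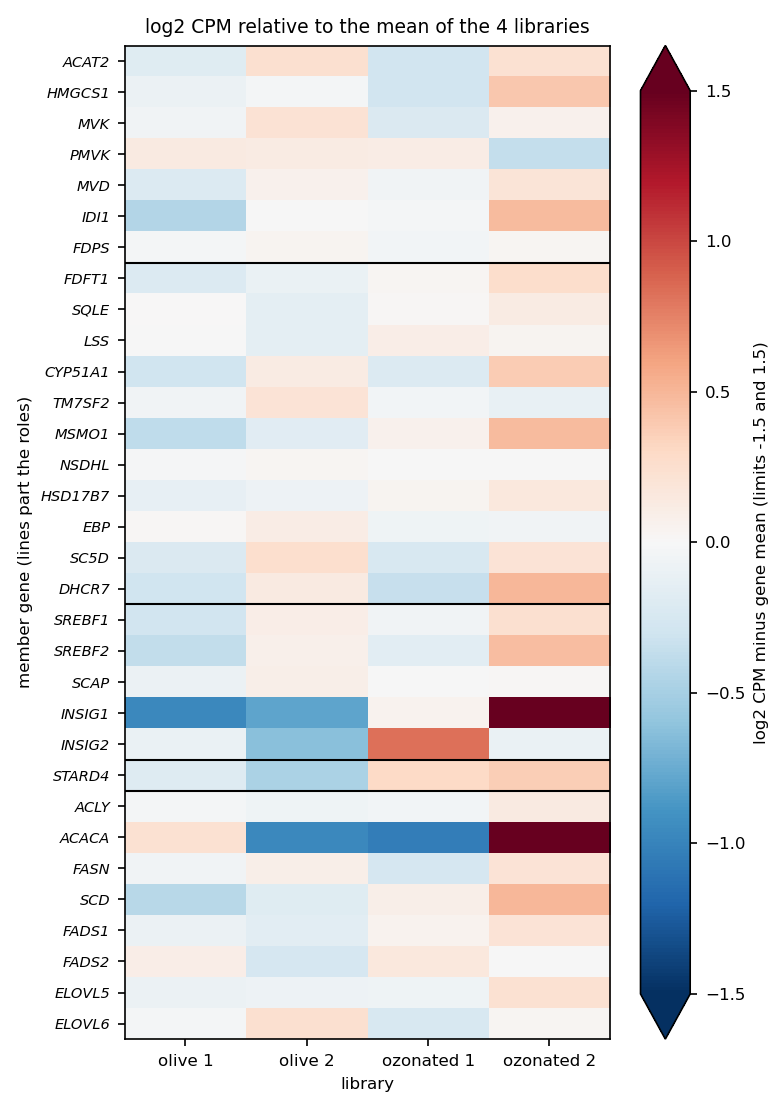
Log2 CPM of each member (y axis, lines part the roles) in each library (x axis), relative to the mean of that gene over the 4 libraries; the colour scale ends at -1.5 and 1.5. The ozonated library 2 holds the highest value for 19 of 32 members, INSIG1 among them.

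Over all 32 members, 17 (53.1%) were higher within both numbers, 7 lower within both and 8 opposite, beside 31.6%, 31.1% and 37.3% of all tested genes. For 10 members both ozonated libraries exceeded both olive oil libraries, and for 2 they were both below, beside 15.3% and 15.7% of all tested genes. At least 1.5-fold higher within both numbers stood 1 member, INSIG1, beside 1.41% of all tested genes. The median log2 fold change of the members was 0.15. It was 0.04 within number 1 and 0.24 within number 2. The ozonated library 2 was the highest of the 4 for 19 of the 32 members, where it was so for 27.5% of all tested genes. The log2 difference, taken with its sign, was higher in number 2 than in number 1 for 23 of the 32, beside 50.6% of all tested genes. All 8 fatty acid genes were among the 23. In size, however, ELOVL6 differed by nearly the same amount (-0.21 and -0.20) and FASN by less in number 2 (-0.20 and 0.11). Without the ozonated library 2 the median of the members was -0.0017 and that of the mevalonate and sterol enzymes -0.04. Without the olive oil library 1 the latter was -0.0037. These fits mix oil and number. The part of the ozonated library 2 in the result was not tested.

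The members also differed between the numbers whatever the oil. Number 2 was above number 1 with both oils for 22 of 32 members and below it with both for 4, beside 36.9% and 36.4% of all tested genes. The median difference of number 2 against number 1 was 0.13 with olive oil and 0.26 with the ozonated oil. Among the sterol genes, ACAT2 (0.42 and 0.52), IDI1 (0.43 and 0.51), SC5D (0.47 and 0.45), DHCR7 (0.43 and 0.85), CYP51A1 (0.41 and 0.58) and SREBF2 (0.45 and 0.62) lay higher in number 2 with olive oil and with the ozonated oil. INSIG2 went the other way (-0.53 and -0.92). For INSIG1 the numbers were close with olive oil (0.18) and apart with the ozonated oil (1.66). The comparison of the numbers with the ozonated oil and the difference within number 2 share the ozonated library 2.

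Levels of different genes were compared only per length, as CPM per kilobase of the longest GENCODE transcript. With olive oil ACLY stood highest (84.9 CPM per kilobase), followed by FDPS (68.4), FASN (61.9) and SCD (59.2), and below 5 stood MVK, STARD4, INSIG2, HSD17B7, TM7SF2, LSS and the poorly counted ACACA. With the ozonated oil SCD (89.7) came next to ACLY (90.5), and INSIG1 moved from 11.4 to 45.2 CPM per kilobase. FASN and SCD did not differ beyond the spread of their libraries with olive oil, nor did ACLY and SCD with the ozonated oil. The transcript the cells use may be shorter than the longest one, which would raise a gene in this order.

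Windows of 28 members, 38 in all, were searched for the motifs named above, since some genes have several starts. ACAT2, FDFT1, SQLE and FASN were not analysed here in this way. The NF-Y box was found in 25 of the 38 windows, which belong to 21 genes, and in 34.6% of the 35116 windows of all genes. The short sterol form was found in 9 of 38 and in 15.5% of all windows, the long form in 1 of 38 and in 1.13%, and the E-box in 6 of 38 and in 7.26%. Some windows of the same gene overlap, and a match is a run of letters and not a measured site. The NF-Y box was present in windows of members that were higher in both ozonated libraries (INSIG1, STARD4, MSMO1, SCD, LSS, HSD17B7, ELOVL5). FADS1, also higher in both ozonated libraries, had no NF-Y box in its window. Most of the 21 genes with the box were not higher in both ozonated libraries. These were HMGCS1, MVK, MVD, IDI1, FDPS, TM7SF2, NSDHL, EBP, SC5D, DHCR7, SREBF2, ACLY, ACACA and FADS2.

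Genes around the pathways were read from 6 further lists, and none of their genes passed the edgeR test. The lists were chosen with earlier results of these data known. Their counts stand beside 31.6% of all tested genes higher within both numbers and 31.1% lower within both. Of 13 genes for uptake, traffic and storage of sterols, 6 were higher within both numbers and 3 lower, with a median of 0.05. GRAMD1B, which moves sterols from the cell surface to the endoplasmic reticulum, had 75.9 and 59.5 CPM with olive oil and 129.1 and 108.5 CPM with the ozonated oil (0.81 ± 0.17, unadjusted p = 0.00522). VLDLR, a lipoprotein receptor, had 15.3 and 20.3 CPM against 34.7 and 28.2 CPM (0.82 ± 0.22, unadjusted p = 0.0133). Neither gene's groups overlapped, nor did those of NPC1, which releases sterols from lysosomes (0.49 ± 0.20). In this list both ozonated libraries exceeded both olive oil libraries for 6 of the 13 genes, beside 15.3% of all tested genes. The others were LRP8 (0.22 ± 0.10), OSBP (0.28 ± 0.11) and GRAMD1A (0.30 ± 0.11). Of 13 genes that cleave SREBP or turn over its partners, 6 were higher within both numbers and 5 lower (median 0.04).

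Of 8 tested genes among LXR factors, their targets and oxysterol enzymes, 7 were higher within both numbers and 0 lower (median 0.20). In the edgeR test 0 of the 8 had an unadjusted p under 0.05. The exporter ABCG1 had only 9 to 14 counts per library. Among those with a mean log2 CPM of 2 or more, the 3 with the largest difference shared by both numbers were CYP27A1 (0.26 ± 0.26), MYLIP, which degrades lipoprotein receptors (0.14 ± 0.32), and the sterol exporter ABCA1 (0.31 ± 0.62, with 19.3 and 8.50 CPM against 25.4 and 9.02 CPM). The 2 with the highest mean level, the LXR factor NR1H2 and the acyltransferase LPCAT3, both had 0.13, with SE of 0.14 and 0.13. Of 12 genes that use isoprenoids outside sterol synthesis, 0 were higher within both numbers and 5 lower (median -0.04), among them the methyltransferase ICMT (-0.16 ± 0.11). Of 23 tested genes of fatty acid supply, activation and glycerolipid synthesis, 13 were higher and 4 lower within both numbers (median 0.06). In this list GPAM, which adds the first acyl chain to glycerol phosphate, had 32.4 and 34.0 CPM against 20.9 and 23.1 CPM (-0.59 ± 0.15, unadjusted p = 0.0103), while LPIN1, a phosphatidate phosphatase, had 47.0 and 55.7 CPM against 68.7 and 83.3 CPM (0.56 ± 0.16, unadjusted p = 0.0153). These genes of the same route thus lay on opposite sides, each without overlap between the oils. In this list 5 genes were higher and 3 lower without overlap, beside 15.3% and 15.7% of all tested genes. Of 18 genes of mitochondrial fatty acid oxidation, 6 were higher and 3 lower within both numbers (median 0.01), and ACADVL had 0.24 ± 0.11.

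**Figure D4:**
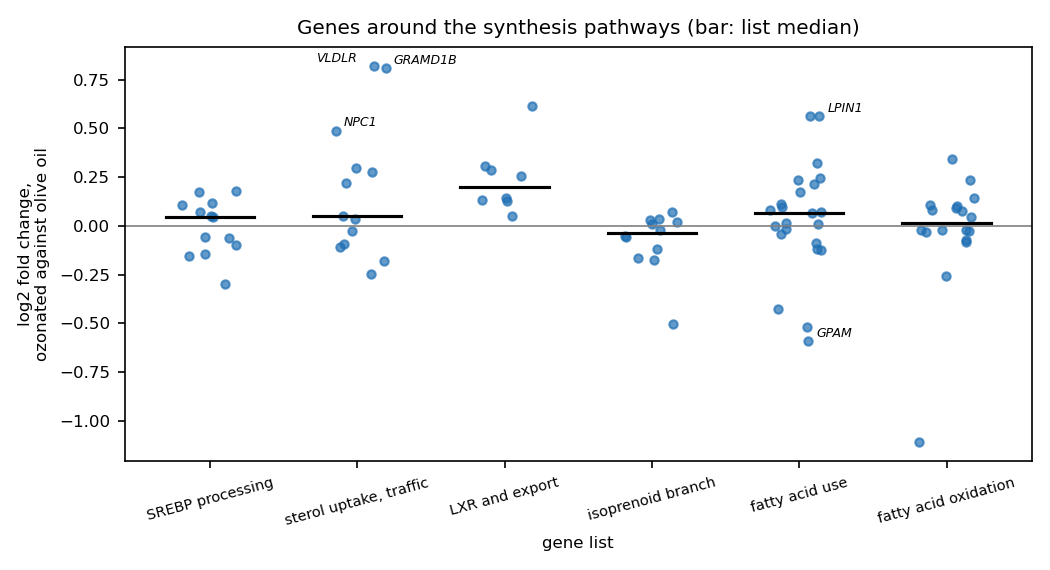
Fitted log2 fold change of the ozonated against the olive oil (y axis) for tested genes of 6 lists around the synthesis pathways (x axis). Points are genes, spread sideways for sight, and bars list medians, which lie between -0.04 and 0.20. VLDLR and GRAMD1B lie highest at 0.82 and 0.81, and GPAM lies at -0.59.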

How the data were processed

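RNA of 4 libraries of A375 cells was extracted with Tri reagent and made into libraries with a directional kit, per the labels' protocols. The deposited table holds raw counts per gene, 1 column per library. Per the submitters' processing notes, which give no roles or order, the tools were HISAT2 2.1.0, StringTie 1.3.4d, FastQC 0.11.7, SAMtools 1.9, edgeR, bedtools 2.27.1 and bcl2fastq, and the build hg38. Which tool counted, with which strand setting and annotation, is not given in the sources used here. Rows without a symbol numbered 617 (0.0423% to 0.0494% of the counts) and were kept.

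The analysis used edgeR 4.0.16 (R 4.3.3): filterByExpr by oil, TMM scaling (factors from 0.972 to 1.02), and the quasi-likelihood test, two-sided, without a block, with Benjamini-Hochberg adjustment over all tested genes and a threshold of 0.05. SE values derive from the log2 fold change and its F statistic. Values within a replicate number are differences of log2 CPM with a prior count of 2. 3 counts in a library are 0.108 to 0.135 CPM, a floor for counting error only. Alternatives were RLE and upper-quartile scaling, other filters, DESeq2 1.42.0, limma-voom (limma 3.58.1), the replicate number as a block and each library left out. The script was tested on simulated data that held no difference between the replicate numbers, unlike the deposited counts. The rule for named genes took all members, in full those with groups apart and an absolute log2 fold change of 0.5 or more and 8 chosen by role, and up to 3 genes of each further list with the largest difference in both numbers, if their mean log2 CPM reached 2. Members and lists were chosen with earlier results of these data known. Gene positions and promoter windows are from RefSeq (GRCh38.p14, the same build as hg38), transcript lengths and overlaps from GENCODE 29. Overlapping genes and pseudogene copies are named in the text for some members only, and other members have them too.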

Additional observations from a re-analysis of the deposited data

How the results depend on the processing

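Each member kept its direction and its side of the threshold with RLE scaling, both other filters and limma-voom. With upper-quartile scaling SCAP turned to -0.0071. DESeq2 called 59 genes (39 higher, 20 lower), 1 of them a member, INSIG1. With the replicate number as a block, edgeR called 841 genes (468 higher, 373 lower) and 7 members, all higher: INSIG1, INSIG2, STARD4, SCD, MSMO1, IDI1 and FDFT1. The labels do not say that a number marks a shared culture or day, and 2 pairs cannot show it. The deviations of same-numbered libraries from their group means correlated with r = 0.672 across genes, which are not independent replicates. The cause of these moves was not tested.

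Leaving out each library in turn, the test called 0 to 4 genes and 0 to 1 members (INSIG1, without ozonated library 1). The median ranged from -0.0017 to 0.25 over the members, from -0.038 to 0.18 over the mevalonate and sterol enzymes and from 0.0060 to 0.25 over the fatty acid genes. These fits mix oil and number, and assume that a lone library varies as the other oil does. Members near 0 or uneven between numbers changed sign in them: ACAT2 (-0.34 to 0.18), HMGCS1 (-0.23 to 0.46), FDPS (-0.054 to 0.023), CYP51A1 (-0.13 to 0.45), NSDHL (-0.030 to 0.023), SC5D (-0.28 to 0.22), DHCR7 (-0.28 to 0.56), SREBF1 (-0.0079 to 0.39), SREBF2 (-0.029 to 0.59), SCAP (-0.082 to 0.10), ACLY (-0.00015 to 0.18), ACACA (-0.78 to 2.03), FASN (-0.27 to 0.18) and FADS2 (-0.021 to 0.32). The count of 17 members higher within both numbers was the same under each scaling, filter and prior count tried. Without ACACA, an alternative chosen after seeing the data, the median over the members was 0.15.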
